A study of Mus musculus with 30 samples.

Results

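The jejunal mucosa of mice given either of 2 growth-promoting agents 20 h earlier was compared with that of mice given PBS, and the genes that moved the same way after both agents were sought. The comparison used 9 of the 30 arrays of the series: 3 from mice injected with exendin-4 (Ex-4, 10 nmol/kg), 3 from mice injected with recombinant human keratinocyte growth factor (Fgf7, also called KGF, 1 mg/kg) and 3 from mice injected with phosphate-buffered saline (PBS). The 6 arrays of treated mice were combined with equal weight for each agent and set against the 3 PBS arrays. All mice were unfasted C57BL/6 males of 11 to 12 weeks that received 1 intraperitoneal injection and were killed 20 h later. RNA came from scrapings of the mucosa of a 2 cm piece of jejunum and was measured on Illumina beadchips, so a value is the average over epithelium and the other cells that a scraping holds. In such bulk samples, fewer cells of a type and less RNA per cell cannot be told apart. Groups taken at 1 h (n = 3 each) and 5 h (n = 4 each) after the same injections served to place the 20 h values in time.

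Ex-4 activates the receptor of the hormone GLP-1, which in the gut is known from enteroendocrine, neural and intraepithelial immune cells more than from absorptive enterocytes. Fgf7 is made by mesenchymal cells and acts on the epithelial splice form of Fgfr2. Both agents are known to enlarge the small intestine of rodents, and the comparison asked which transcripts of the mucosa they share. The mucosa renews itself from crypts, in which cells divide, while enterocytes on the villi carry out absorption, make antimicrobial proteins and express enzymes that modify and conjugate foreign compounds.

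Of 13144 genes tested, 21 passed in the pooled comparison at an adjusted p under 0.05 in limma's test, a share of 0.160%. Of these, 7 were higher after treatment (0.0533% of genes) and 14 were lower (0.107%). Each of the 21 also differed between Ex-4 and Fgf7, and 19 of them moved further from PBS after Ex-4. Only 3 of the 21 met the rule for a change common to both agents, which asked in addition for the same sign after each agent and for all 6 treated arrays to lie on one side of all 3 PBS arrays (0.0228% of genes). They were Pglyrp1 and Mboat1, which rose, and Msmo1, which fell. No gene passed for Ex-4 and for Fgf7 separately at an adjusted p under 0.05, where 302 genes passed for Ex-4 (2.30%) and 6 for Fgf7 (0.0456%). At an unadjusted p under 0.05, 145 genes (1.10%) passed for each agent with the same sign, 98 of them higher and 47 lower. Both agents were set against the same 3 PBS arrays, so these counts for the 2 agents share their control.

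Across genes, the 9 arrays correlated with r of 0.991 to 0.995 within groups (9 pairs) and 0.985 to 0.996 between groups (27 pairs), a description over genes that are not independent. The third arrays of the PBS and the Fgf7 group deviated from their group means in the same direction (r = 0.61 over genes). Without PBS replicate 2 or 3 the pooled count was 9 or 8, and without Ex-4 replicate 2 or 3 it was 41 or 57. With the third arrays of PBS and of Fgf7 left out together, an alternative chosen after seeing the data, 4 genes passed and Mboat1 was the only 1 of the 3 common genes among them, with adjusted p values of 0.084 for Pglyrp1 and 0.235 for Msmo1. No array of the 20 h groups was among the 4 arrays of the series with high smooth muscle signal.

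The promoters of the 3 genes common to both agents are shown, together with that of Gsta3, which had the largest fall of the pooled comparison. Each is the stretch from 250 bases before to 50 bases after the start site, read in the gene's direction from RefSeq sequence of build GRCm38.p6. Mboat1 lies on the plus strand at chr13:30136240-30136539, Pglyrp1 on the plus strand at chr7:18884440-18884739, Msmo1 on the minus strand at chr8:64733529-64733828 and Gsta3 on the plus strand at chr1:21240335-21240634. Capitals mark a match to the core of the antioxidant response element, TGACNNNGC, on either strand.
Mboat1: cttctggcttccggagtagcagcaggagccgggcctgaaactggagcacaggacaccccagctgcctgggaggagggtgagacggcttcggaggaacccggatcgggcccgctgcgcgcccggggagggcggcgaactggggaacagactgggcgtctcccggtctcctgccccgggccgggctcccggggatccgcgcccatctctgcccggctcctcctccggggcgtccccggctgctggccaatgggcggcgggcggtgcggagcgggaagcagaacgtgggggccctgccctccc
Pglyrp1: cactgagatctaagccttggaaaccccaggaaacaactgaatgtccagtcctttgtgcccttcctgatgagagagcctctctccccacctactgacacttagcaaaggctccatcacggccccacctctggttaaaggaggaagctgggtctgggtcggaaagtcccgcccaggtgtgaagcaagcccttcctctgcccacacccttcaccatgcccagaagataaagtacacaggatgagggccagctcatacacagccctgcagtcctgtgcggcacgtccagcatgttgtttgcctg
Msmo1: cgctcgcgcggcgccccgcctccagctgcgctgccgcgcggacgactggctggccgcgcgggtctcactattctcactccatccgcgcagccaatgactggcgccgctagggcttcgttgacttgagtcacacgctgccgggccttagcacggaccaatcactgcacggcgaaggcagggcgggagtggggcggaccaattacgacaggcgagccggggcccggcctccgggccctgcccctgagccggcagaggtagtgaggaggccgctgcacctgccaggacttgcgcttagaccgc
Gsta3: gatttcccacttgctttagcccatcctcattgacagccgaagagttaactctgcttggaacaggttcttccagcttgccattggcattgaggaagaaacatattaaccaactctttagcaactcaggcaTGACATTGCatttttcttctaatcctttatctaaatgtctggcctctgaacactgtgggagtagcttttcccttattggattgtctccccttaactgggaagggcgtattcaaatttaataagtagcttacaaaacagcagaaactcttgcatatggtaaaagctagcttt
The 4 motifs searched on both strands were this core, the E-box CACGTG of clock and MYC factors, the D-box of clock output factors (TTATGTAA or TTACGTAA) and the STAT motif TTCNNNGAA. None of the 4 was found in the windows of Mboat1, Pglyrp1 and Msmo1, and the Gsta3 window held a single match, TGACATTGC, whose first base lies at -121 from the start site. Over the 21 genes of the pooled comparison, 3 windows held the antioxidant core (Gsta3, Akr1c19 and Cyp2c65) against 12.4% of 32851 windows of the table, and 3 held the STAT motif (Akr1c19, Gsta1 and Aldoc) against 8.30%. The E-box was found in 1 window, that of S100a6, against 7.15%, and the D-box in 0 against 1.06%. These are matches of letters in a window and not binding sites.

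The receptors of the agents gave little signal or no change that passed. Glp1r, the receptor of Ex-4, was not tested, since 0 of the 30 arrays exceeded the dim level of 7.18, a bound that a share of 0.01 of the background would exceed. Fgfr2, the receptor gene of Fgf7, had log2 signals of 9.01, 9.15 and 9.67 after Ex-4 and 9.06, 9.20 and 9.18 after Fgf7, against 9.52, 9.75 and 9.43 in PBS arrays. The highest Ex-4 array lay among the PBS arrays, and the pooled log2 difference was -0.35 ± 0.15 (SE, adjusted p = 0.508 in limma's test). The endogenous Fgf7 transcript had a pooled difference of 0.05 ± 0.07 on the log2 scale.

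Pglyrp1 encodes a secreted peptidoglycan recognition protein that kills bacteria. Its log2 signals were 12.78, 12.22 and 12.41 after Ex-4 and 10.93, 11.48 and 11.26 after Fgf7, against 10.88, 10.88 and 10.72 in PBS arrays. All 6 treated arrays lay above the PBS arrays, but the lowest Fgf7 array exceeded the highest PBS array by a margin that was small beside the spread of the Fgf7 group. The pooled log2 difference was 1.02 ± 0.16 (SE, 2.02-fold, adjusted p = 0.00199 in limma's test). Taken singly, the log2 difference was 1.64 ± 0.18 for Ex-4 (adjusted p = 2.73e-06) and 0.40 ± 0.18 for Fgf7 (95% interval 0.02 to 0.77, adjusted p = 0.999). A second probe of Pglyrp1, with a mean signal of 7.29 just above the dim level, showed a pooled difference of only 0.04.

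Mboat1 encodes an acyltransferase that attaches fatty acids to lysophospholipids. Its log2 signals were 7.62, 7.52 and 7.58 after Ex-4 and 8.22, 8.56 and 8.28 after Fgf7, against 7.37, 7.32 and 7.47 in PBS arrays. The 3 groups did not overlap, with Fgf7 highest, Ex-4 between and PBS lowest. The pooled log2 difference was 0.57 ± 0.08 (SE, 1.49-fold, adjusted p = 0.000717), with 0.18 ± 0.09 for Ex-4 (adjusted p = 0.452) and 0.96 ± 0.09 for Fgf7 (adjusted p = 2.34e-06). The Ex-4 difference alone did not pass, and the call rests mainly on the Fgf7 arrays.

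Msmo1 encodes methylsterol monooxygenase, which removes methyl groups from sterol intermediates on the way to cholesterol. Its log2 signals were 11.01, 11.09 and 10.93 after Ex-4 and 11.46, 11.67 and 11.41 after Fgf7, against 11.74, 11.80 and 11.88 in PBS arrays. Again the 3 groups did not overlap, and here Ex-4 was lowest. The pooled log2 difference was -0.54 ± 0.09 (SE, 1.46-fold lower, adjusted p = 0.00483), with -0.80 ± 0.11 for Ex-4 (adjusted p = 4.71e-05) and -0.29 ± 0.11 for Fgf7 (adjusted p = 0.999). Without PBS replicate 2 or without PBS replicate 3, Msmo1 did not pass, with adjusted p values of at most 0.0908. Mboat1 and Pglyrp1 passed whichever 1 of the 9 arrays was left out.

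**Figure D1:**
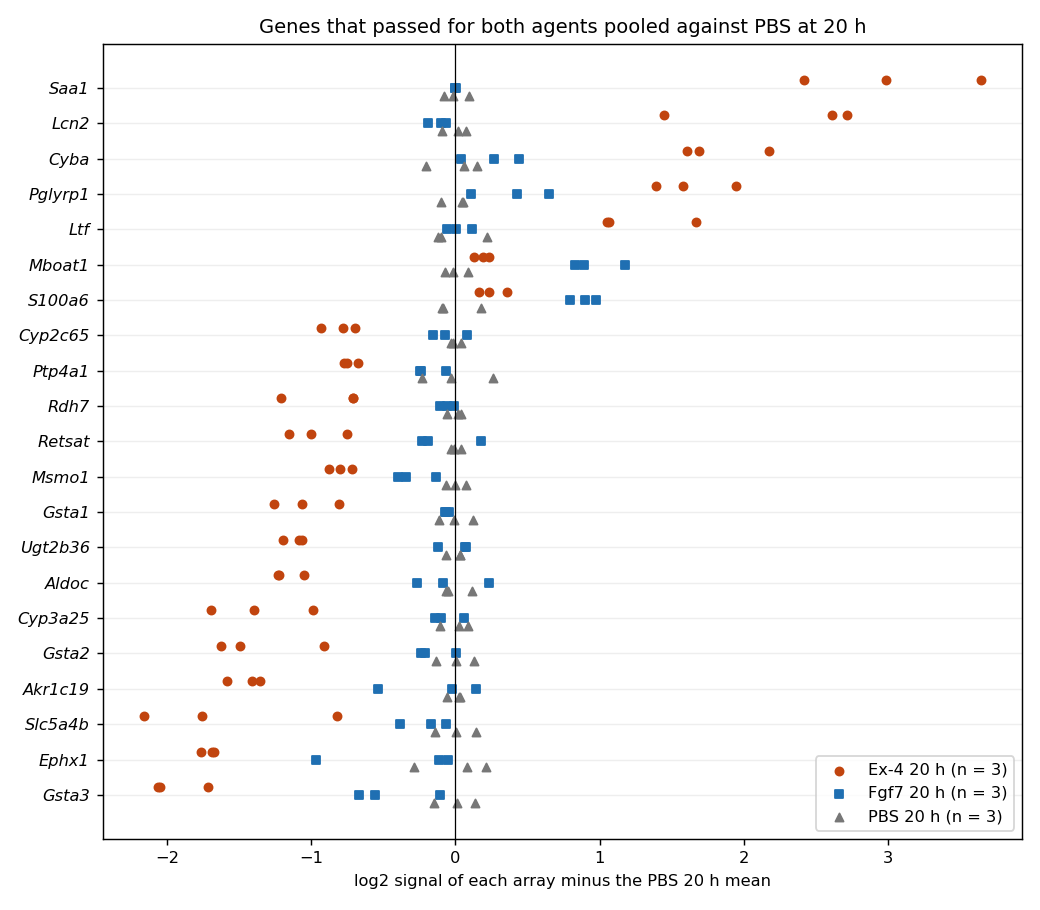
Log2 signal of each 20 h array minus the mean of the PBS arrays (horizontal axis) for the 21 genes that passed in the pooled comparison, ordered by pooled difference (vertical axis). Circles are Ex-4 arrays, squares Fgf7 arrays and triangles PBS arrays (n = 3 each). For 19 of the 21 genes the Ex-4 arrays stand farther from PBS than the Fgf7 arrays, which lie near 0 for most of them, and Mboat1 and S100a6 are the 2 genes with the reverse order.

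Among the genes that were higher (0.0533% of all genes tested), 4 belong to a list of acute-phase, antimicrobial and metal-withholding genes. These 4, of 19 tested, were Saa1, Lcn2, Pglyrp1 and Ltf. The median pooled difference of that list was 0.10, with 0.31 for Ex-4 and -0.00 for Fgf7, where the median of all genes tested was 0.01 in the pooled comparison. Saa1, an acute-phase apolipoprotein, had log2 signals of 10.69, 9.47 and 10.04 after Ex-4 and 7.06, 7.05 and 7.05 after Fgf7, against 7.04, 7.15 and 6.97 in PBS arrays. No Fgf7 or PBS array lay above the dim level, so that the signal after Ex-4 was at least 7.40-fold higher than after PBS. The pooled difference of 1.51 ± 0.13 (adjusted p = 1.59e-07 in limma's test) was carried by the Ex-4 arrays. Only these 3 of the 30 arrays exceeded the dim level, so the probe met the filter through the group where it was high. Its p-value is therefore no independent support. A second Saa1 probe, of low signal, had a pooled difference of 0.20, and Saa1 has close paralogs whose transcripts a probe may share. Lcn2, lipocalin 2, which withholds iron from bacteria by binding siderophores, had the same pattern, with 9.77, 8.50 and 9.66 after Ex-4 and 6.95, 6.99 and 6.86 after Fgf7, against 7.13, 7.07 and 6.96 in PBS arrays. Its signal after Ex-4 was at least 4.37-fold higher than after PBS.

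Ltf, lactoferrin, another iron-binding antimicrobial protein, had 8.90, 8.29 and 8.30 after Ex-4 and 7.23, 7.35 and 7.17 after Fgf7, against 7.45, 7.12 and 7.13 in PBS arrays. The Ex-4 arrays stood above all others and the Fgf7 and PBS arrays overlapped. Cyba, the p22phox subunit that NADPH oxidases need, was the only 1 of 6 tested genes of epithelial oxidases and their partners to pass. It had 11.73, 11.24 and 11.16 after Ex-4 and 9.59, 9.82 and 9.99 after Fgf7, against 9.61, 9.70 and 9.35 in PBS arrays, and its pooled log2 difference was 1.04 ± 0.15 (SE, adjusted p = 0.000717). Of the 3 Fgf7 arrays, 2 lay above every PBS array, but the Fgf7 difference alone, 0.25 ± 0.17, did not pass. S100a6, a calcium-binding protein, was the second gene whose pooled rise came mainly from Fgf7, with 10.76, 10.83 and 10.95 after Ex-4 and 11.49, 11.39 and 11.57 after Fgf7, against 10.77, 10.51 and 10.50 in PBS arrays. Its difference was 0.25 ± 0.14 for Ex-4 and 0.89 ± 0.14 for Fgf7 (adjusted p = 0.00226), and the lowest Ex-4 array lay just under the highest PBS array.

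Enzymes of foreign-compound metabolism made up 8 of the 14 genes that were lower. Over all genes tested, 0.107% passed and were lower, the share to set beside the list counts here and below. The share of such enzymes among all genes tested was not computed. Of 23 tested glutathione transferases, which conjugate electrophiles to glutathione, 3 passed and all 3 were lower: Gsta3, Gsta1 and Gsta2. Gsta3 had log2 signals of 8.82, 9.16 and 8.83 after Ex-4 and 10.77, 10.32 and 10.21 after Fgf7, against 10.74, 11.02 and 10.89 in PBS arrays. The pooled log2 difference of -1.19 ± 0.18 (SE, 2.29-fold lower, adjusted p = 0.00127) combined -1.94 ± 0.21 for Ex-4 with -0.45 ± 0.21 for Fgf7 (95% interval -0.87 to -0.02). The highest Fgf7 array lay inside the PBS range, so Gsta3 did not meet the rule for a common change. The PBS mean of Gsta3 was 10.35 at 1 h and 10.29 at 5 h, against 10.88 at 20 h, where the Fgf7 mean was 10.44. Gsta1 and Gsta2 had pooled differences of -0.55 and -0.75, with Fgf7 differences of -0.06 and -0.15. Members of this family, like those of the P450, glucuronosyltransferase and aldo-keto reductase families, have near-identical relatives, and a probe may read more than 1 of them.

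Of 17 tested drug-metabolising cytochromes P450, with their reductase, 2 passed and were lower, against 0.107% of all genes tested. Cyp3a25 had a pooled log2 difference of -0.71 ± 0.12 (SE, adjusted p = 0.00483), with -1.36 for Ex-4 and -0.06 for Fgf7, and Cyp2c65 one of -0.43 ± 0.08, with -0.80 for Ex-4 and -0.05 for Fgf7. Of 17 tested UDP-glucuronosyltransferases and sulfotransferases, which attach glucuronic acid or sulfate, Ugt2b36 was lower at -0.55, with -1.12 for Ex-4 and 0.01 for Fgf7. Of 15 tested aldo-keto reductases, aldehyde dehydrogenases and epoxide hydrolases, Ephx1 and Akr1c19 were lower. Ephx1, microsomal epoxide hydrolase, had 8.11, 8.19 and 8.20 after Ex-4 and 9.76, 9.83 and 8.91 after Fgf7, against 9.96, 10.09 and 9.59 in PBS arrays. Its PBS mean was 9.39 at 1 h and 9.57 at 5 h, against 9.88 at 20 h, where the Fgf7 mean was 9.50. The third Fgf7 array stood apart from the other two, below every PBS array, while the other two lay within the PBS range. Akr1c19 also had 1 low Fgf7 array, the other two being within or above the PBS range, with 11.70, 11.75 and 11.53 after Ex-4 and 13.08, 13.25 and 12.57 after Fgf7, against 13.13, 13.14 and 13.05 in PBS arrays. Of 11 tested carboxylesterases 0 passed in limma's pooled test. The nearest was Ces1d at -0.86 ± 0.19 (adjusted p = 0.051), whose treated arrays all lay below the PBS arrays. The mean of the carboxylesterase list relative to PBS was -0.39, -0.38 and -0.36 after Ex-4 and -0.12, -0.09 and -0.12 after Fgf7. The PBS arrays had -0.06, -0.01 and 0.07. Among 32 lists of pathway genes, the carboxylesterases were the only 1 with both agents' arrays wholly on the same side of PBS. Whether 1 such list exceeds what unchanged lists would give was not tested.

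Over the whole lists, the medians for Ex-4 lay far from those for Fgf7. The median log2 difference of the P450 list was -0.68 for Ex-4 and -0.09 for Fgf7, and that of the glutathione transferases -0.39 for Ex-4 and -0.06 for Fgf7. The glucuronosyltransferases and sulfotransferases had medians of -0.50 for Ex-4 and -0.07 for Fgf7, and the carboxylesterases -0.32 for Ex-4 and -0.08 for Fgf7. Array by array, the mean of the P450 list relative to PBS was -0.80, -0.53 and -0.68 after Ex-4 and -0.06, -0.14 and -0.07 after Fgf7, against -0.13, 0.03 and 0.11 in PBS arrays. The Fgf7 arrays lay within the PBS range or just under it, and the Ex-4 arrays well below. For Ex-4 alone, 11 of the 17 P450 genes and 9 of the 23 glutathione transferases passed and were lower. For Fgf7 alone 0 of either list passed in limma's test. Over all 13144 genes tested, 302 passed for Ex-4 (2.30%), 170 of them lower, and 0.0456% passed for Fgf7.

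Genes of retinoid and sugar metabolism were among the others that were lower. Retsat, retinol saturase, and Rdh7, a retinol dehydrogenase, were 2 of 13 tested genes of retinoid uptake and metabolism, with pooled log2 differences of -0.53 and -0.47. For Fgf7 their differences were -0.08 and -0.06. Slc5a4b, of the sodium-glucose cotransporter family, was the only 1 of 14 tested sugar transporters and fructose genes to pass, with 10.31, 11.65 and 10.71 after Ex-4 and 12.40, 12.09 and 12.30 after Fgf7, against 12.33, 12.47 and 12.61 in PBS arrays. Aldoc, aldolase C of glycolysis, was lower at -0.60, with -1.17 for Ex-4 and -0.04 for Fgf7. Ptp4a1, a protein tyrosine phosphatase, was lower at -0.46, with -0.73 for Ex-4 and -0.18 for Fgf7. Of 18 tested genes of cholesterol synthesis and SREBP targets, Msmo1 alone passed, and the list had a pooled median of -0.11, with 12 of the 18 below 0 for both agents. Over all genes tested, 29.9% were below 0 for both agents and 38.1% above 0 for both.

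The test between the agents bears directly on how far a pooled call is shared. The log2 difference between Ex-4 and Fgf7 passed for all 21 genes, with sizes of 0.51 to 3.02 and adjusted p values of at most 0.00903 in limma's test, where 231 genes (1.76%) passed among all tested. Only 2 of the 21, Mboat1 and S100a6, passed for Fgf7 alone, and 19 passed for Ex-4 alone. The signs matched in 18 of the 21. For the probes used of Saa1, Lcn2 and Ugt2b36 the signs were opposite, with Fgf7 differences of -0.00, -0.12 and 0.01 whose 95% intervals all held 0. A second Ugt2b36 probe, above the dim level in all 30 arrays, had the same sign for both, with -1.31 for Ex-4 and -0.14 for Fgf7. Other probes above it in all 30 arrays had larger Fgf7 falls than those used: Gsta1 (-0.10 and -0.22), Retsat (-0.19), Rdh7 (-0.14) and Cyp2c65 (-0.07, -0.11 and -0.10). The second Gsta3 probe, of low signal, had a smaller one (-0.08). Taken singly, 5 of the 21 had an unadjusted p under 0.05 for Fgf7.

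**Figure D2:**
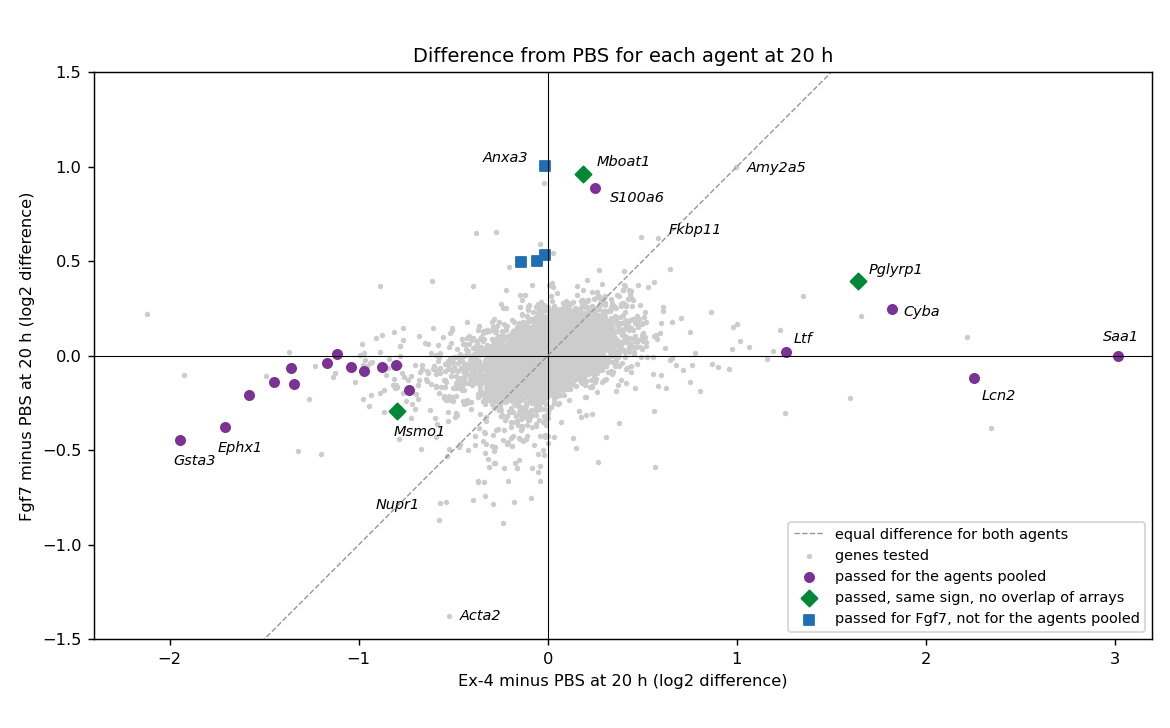
Log2 difference from PBS at 20 h for Ex-4 (horizontal axis) and Fgf7 (vertical axis), for each of 13144 genes (grey). Both axes share the 3 PBS arrays, so the 2 values of a gene are not independent. Of the 21 genes that passed for the agents pooled, 19 lie farther from 0 on the Ex-4 axis than on the Fgf7 axis and Mboat1 and S100a6 the reverse, and the 3 diamonds are the genes that met the rule for a common change.

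Every gene that passed in the pooled comparison differed between the agents, so genes below its threshold were looked at for like values after both. Across all genes, the 6 treated arrays lay wholly on one side of the 3 PBS arrays for 314 (2.39%), 186 higher and 128 lower. Of the 145 genes with an unadjusted p under 0.05 for each agent and the same sign, 135 had an unadjusted p of 0.05 or more between the agents, and 73 of these also had arrays that did not overlap. A p that misses the threshold does not show like effects, and all these counts rest on the same 3 PBS arrays. Whether they exceed what arrays with no change would give was not tested, so nothing is read from them and the genes named next are a description. Nearest to the threshold among these 73, and named after their values were seen, were Fkbp11 and Nupr1. Fkbp11, a peptidyl-prolyl isomerase of the endoplasmic reticulum, had log2 signals of 8.66, 8.11 and 8.56 after Ex-4 and 8.36, 8.74 and 8.36 after Fgf7, against 7.99, 7.81 and 7.78 in PBS arrays. Its pooled difference was 0.60 ± 0.13 (SE, adjusted p = 0.051 in limma's test), with 0.58 for Ex-4 and 0.62 for Fgf7, and the interval of the difference between the agents ran from -0.36 to 0.28.

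Nupr1, a stress-induced nuclear protein, had 8.86, 8.53 and 9.09 after Ex-4 and 8.42, 8.68 and 8.75 after Fgf7, against 9.27, 9.58 and 9.34 in PBS arrays. All treated arrays were below the PBS arrays, and the pooled difference was -0.67 ± 0.15 (SE, adjusted p = 0.0543), with -0.57 for Ex-4 and -0.78 for Fgf7. Fut4, a fucosyltransferase, and Tmc7, a transmembrane protein, both had a pooled difference of -0.51, with -0.59 and -0.52 for Ex-4 and -0.43 and -0.49 for Fgf7, and did not pass. Zfp217, a zinc finger protein, had a pooled difference of 0.25 with almost equal values for both agents, but its PBS arrays did not lie above the dim level. None of these 5 genes passed in the pooled comparison after adjustment.

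Among 32 lists of pathway genes, that of mitosis had like medians for both agents. Its median log2 difference was 0.20 in the pooled comparison, 0.21 for Ex-4 and 0.18 for Fgf7. Of its 17 tested genes, 16 were above 0 for both agents, against 38.1% of all genes tested, yet 0 of the 17 passed in limma's test. The smallest p belonged to Plk1, a kinase of mitotic entry, with 9.02, 8.73 and 9.17 after Ex-4 and 8.74, 9.13 and 8.86 after Fgf7, against 8.83, 8.67 and 8.40 in PBS arrays. Its pooled difference was 0.31 ± 0.11 (SE, adjusted p = 0.41). The list's mean relative to PBS was 0.21, -0.04 and 0.37 after Ex-4 and 0.00, 0.36 and 0.20 after Fgf7, against 0.11, 0.02 and -0.12 in PBS arrays. Treated and PBS arrays thus overlapped, and within each treated group the arrays spread more widely than the list's median. The 30 tested genes of DNA replication and S phase had a pooled median of 0.11, with 23 above 0 for both agents and 0 passed. Genes of 1 phase of the cycle vary together, so the members of these lists are not independent of each other.

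**Figure D3:**
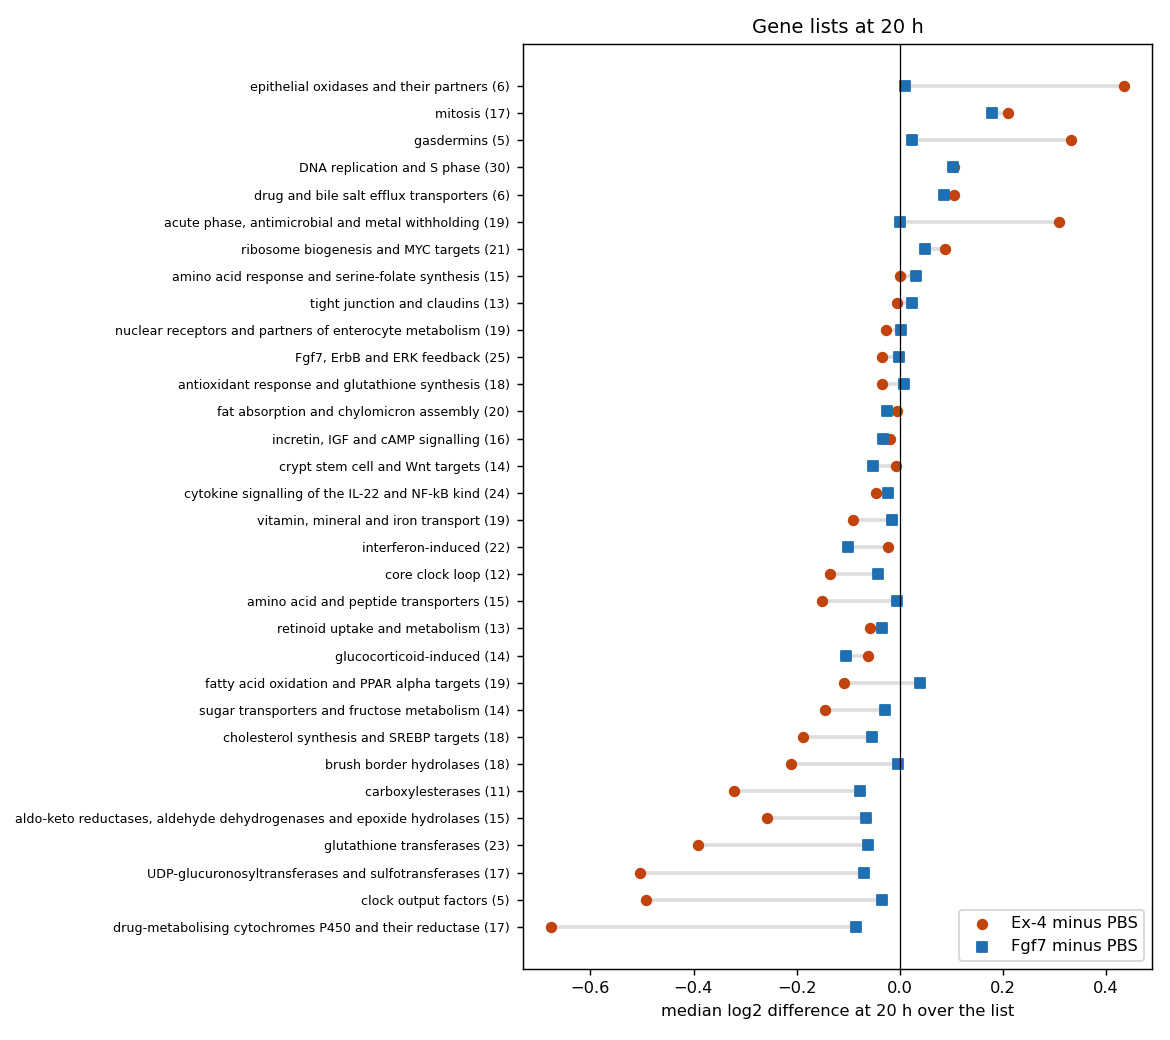
Median log2 difference from PBS at 20 h over each of 32 gene lists (vertical axis, number of tested genes in brackets), circles for Ex-4 and squares for Fgf7. The lists of conjugating and oxidising enzymes lie far below 0 for Ex-4 and between -0.09 and -0.06 for Fgf7, and the mitosis and S phase lists have nearly the same median for both agents.

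Lists of other pathways gave 0 genes that passed in the pooled comparison, among them the core clock loop, clock output factors, crypt stem cell and Wnt targets, brush border hydrolases, tight junctions, interferon-induced genes and the feedback genes of ErbB and ERK signalling. The 2 agents had values of opposite sign in several clock genes, among them Dbp, Arntl, Tef and Per2. Tef had -0.91 for Ex-4 (adjusted p = 0.00408 in limma's test) and 0.10 for Fgf7. Per2 had -0.99 for Ex-4 (adjusted p = 0.00217) and 0.01 for Fgf7. In other clock genes the signs were the same, as in Per1, with -0.67 for Ex-4 and -0.49 for Fgf7, which passed for neither agent. Dbp, a clock output factor, had 10.00, 10.29 and 8.75 after Ex-4 and 12.09, 12.11 and 11.87 after Fgf7, against 11.46, 11.84 and 12.10 in PBS arrays. It fell by 2.12 on the log2 scale after Ex-4 (adjusted p = 3.64e-06) and had a difference of 0.22 after Fgf7, and the pooled value of -0.95 did not pass (adjusted p = 0.051). Arntl, which encodes the clock factor BMAL1, rose after Ex-4 by 0.81 and had -0.19 after Fgf7, and the pooled value was 0.31. Among the feedback genes, Phlda1 had -0.79 for Ex-4 and -0.44 for Fgf7 with arrays that did not overlap PBS, and its pooled value of -0.61 ± 0.18 did not pass.

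Markers of cell types that a scraping can hold were read beside these results. Of 12 enterocyte markers, 10 lay above the dim level in all 9 arrays, and the probes of Fabp1 and Fabp2 in 0. The 18 marker lists held 0 genes that passed in the pooled comparison by limma's test. In 7 of the 18 lists the means of the 3 Fgf7 arrays lay wholly on one side of the PBS arrays: below them for the Paneth cell, smooth muscle, fibroblast, endothelial and mast cell lists, and above them for the goblet cell and pancreatic acinar lists. In 4 lists the Ex-4 arrays did, below PBS for the enteroendocrine, intraepithelial lymphocyte and proximal gut lists and above it for the distal gut list. Some margins were minute: the highest Ex-4 enteroendocrine mean was -0.0371 against a lowest PBS mean of -0.0363. For the Paneth cell list the highest Fgf7 mean was -0.217 against a lowest PBS mean of -0.206. Whether these counts exceed what unchanged lists would give was not tested. In 0 of the 18 did both agents' arrays separate from PBS on the same side. Smooth muscle markers had a list mean relative to PBS of -0.22, -0.21 and 0.18 after Ex-4 and -0.29, -0.20 and -0.25 after Fgf7, against 0.14, -0.01 and -0.14 in PBS arrays. Ex-4 replicate 3 thus stood above all PBS arrays and the other 5 treated arrays below them. Mast cell markers, 3 of them tested, had -0.02, -0.08 and 0.01 after Ex-4 and -0.25, -0.20 and -0.29 after Fgf7, against -0.00, 0.02 and -0.02 in PBS arrays. Intraepithelial lymphocyte and T cell markers had -0.23, -0.28 and -0.22 after Ex-4 and 0.05, -0.02 and 0.09 after Fgf7, against -0.16, 0.02 and 0.14 in PBS arrays. Fibroblast and matrix markers had 13 of 15 tested genes below 0 for both agents, against 29.9% of all genes tested. Their pooled median was -0.11. Their list mean relative to PBS was -0.29, -0.11 and 0.23 after Ex-4 and -0.20, -0.28 and -0.37 after Fgf7, against 0.05, 0.10 and -0.15 in PBS arrays. The Fgf7 arrays were below the PBS arrays and the Ex-4 arrays spread across them. Macrophage and dendritic cell markers had 9 of 11 tested below 0 for both agents, a median of -0.14 and arrays that overlapped. The 10 tested genes of MHC class II had a pooled median of -0.30, with array means of -0.70, -0.35 and -0.13 after Ex-4 and -0.31, -0.21 and 0.19 after Fgf7, against -0.19, 0.24 and -0.05 in PBS arrays. Neutrophils too can make Ltf and Lcn2. Of 9 neutrophil markers with a probe, 0 exceeded the dim level in all 9 arrays, and the list mean ran from -0.08 to 0.03 in the 6 treated arrays, against -0.10 to 0.10 in PBS arrays.

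Of the 7 tested pancreatic acinar genes, 3 had treated arrays that did not overlap the PBS arrays, against 2.39% of all genes tested. These were Amy2a5, Cela2a and Cpb1, and 0 of the 7 passed in limma's pooled test. Cela1, above the dim level in all 9 arrays, went the other way, with a pooled difference of -0.19. Its difference was -0.33 for Ex-4 (adjusted p = 0.0419 in limma's test) and -0.05 for Fgf7. Cela2a and Cpb1 lay near the dim level, with 6 and 3 of the 9 arrays above it. Amy2a5, a pancreatic amylase, had 9.15, 8.39 and 7.89 after Ex-4 and 8.80, 8.29 and 8.34 after Fgf7, against 7.45, 7.50 and 7.47 in PBS arrays, a pooled difference of 1.00 ± 0.27 (SE, adjusted p = 0.167). The PBS mean of Amy2a5 was 8.69 at 1 h and 8.43 at 5 h, against treated means at 20 h of 8.47 after Ex-4 and 8.48 after Fgf7. The trypsin genes Try4 and Prss2 exceeded the dim level in 0 and 1 of the 9 arrays. Markers of the distal gut were above 0 for both agents in 5 of 6 tested genes, against 38.1% of all genes tested. Their pooled median was 0.16. The proximal gut markers had a list mean of -0.34, -0.27 and -0.34 after Ex-4 and 0.02, -0.05 and -0.05 after Fgf7. The PBS arrays had -0.02, -0.05 and 0.07. The part of these marker shifts in the gene results was not tested.

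**Figure D4:**
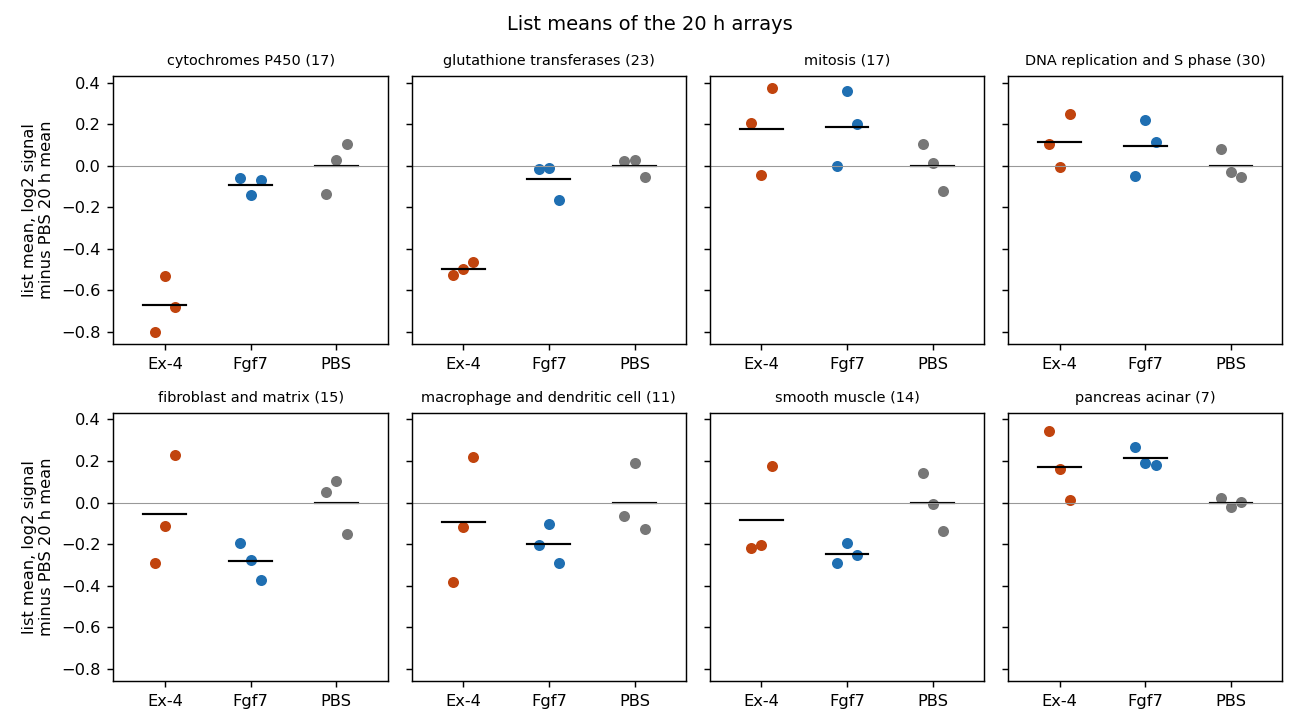
Mean over the tested genes of 8 lists (number in brackets) of the log2 signal relative to the PBS mean, for each Ex-4, Fgf7 and PBS array at 20 h (points, n = 3 each) with the group mean (bar). The P450 and glutathione transferase means of the Ex-4 arrays stand apart, and the mitosis, S phase and macrophage means of treated and PBS arrays overlap. The smooth muscle means of the 3 Fgf7 arrays and of 2 Ex-4 arrays lie below the PBS arrays, and that of Ex-4 replicate 3 lies above them.

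Of the 21 genes, 2 had an unadjusted p under 0.05 in the pooled comparison at 5 h, and 1, Ptp4a1, at 1 h. At 5 h, 38 genes (0.289%) passed for both agents pooled, 32 higher and 6 lower, and only Mboat1 and Msmo1 were among those that passed at 20 h too. The 5 h and 20 h comparisons share no arrays. Of the 38 genes, 23 had the same sign at 20 h, 9 of them with an unadjusted p under 0.05, and 1 had such a p with the opposite sign. Of the 21 genes of the 20 h comparison, 12 had the same sign at 5 h. At 1 h, 1 gene passed for the agents pooled, Egr1, an immediate early transcription factor that is not among the 21.

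Mboat1 was the gene whose pooled rise was seen at both later times, with a log2 difference of 0.04 at 1 h, 0.39 ± 0.07 at 5 h (SE, adjusted p = 0.0169 in limma's test) and 0.57 ± 0.08 at 20 h. At 5 h its mean was 7.46 ± 0.15 after Ex-4 and 8.06 ± 0.18 after Fgf7, against 7.37 ± 0.06 in PBS arrays (SD, n = 4 each). At 5 h, as at 20 h, the higher mean was that of the Fgf7 group, and the difference between the agents at 5 h was not tested. Msmo1 changed direction, with a pooled difference of -0.08 at 1 h, 0.47 ± 0.08 at 5 h (adjusted p = 0.0117) and -0.54 ± 0.09 at 20 h. At 5 h its mean was 12.58 ± 0.11 after Ex-4 and 12.02 ± 0.12 after Fgf7, against 11.84 ± 0.20 in PBS arrays (SD, n = 4 each). Pglyrp1 had pooled differences of -0.09 at 1 h and 0.24 at 5 h, neither of which passed.

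The change between 5 h and 20 h passed for 7 genes (0.0533%), of which 4 were among the 21. Msmo1 dropped by 1.01 on the log2 scale in the pooled difference at 20 h minus that at 5 h (adjusted p = 9.66e-05), and Lss, lanosterol synthase of the same pathway, dropped by 0.88. Lss had means of 9.40 after Ex-4 and 8.79 after Fgf7 at 5 h, against 8.46 in PBS arrays, and a pooled difference of -0.24 at 20 h that did not pass (adjusted p = 0.615). Saa1, Gsta3 and Akr1c19 changed by 1.51, -1.34 and -0.92 between the times. The PBS mean of Gsta3 also differed between them, at 10.29 at 5 h and 10.88 at 20 h. Cd82, a tetraspanin, had a change of 0.32, and 1700025G04Rik one of -0.59. Of the 7, Msmo1 was the only gene that also met the rule for a common change at 20 h.

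**Figure D5:**
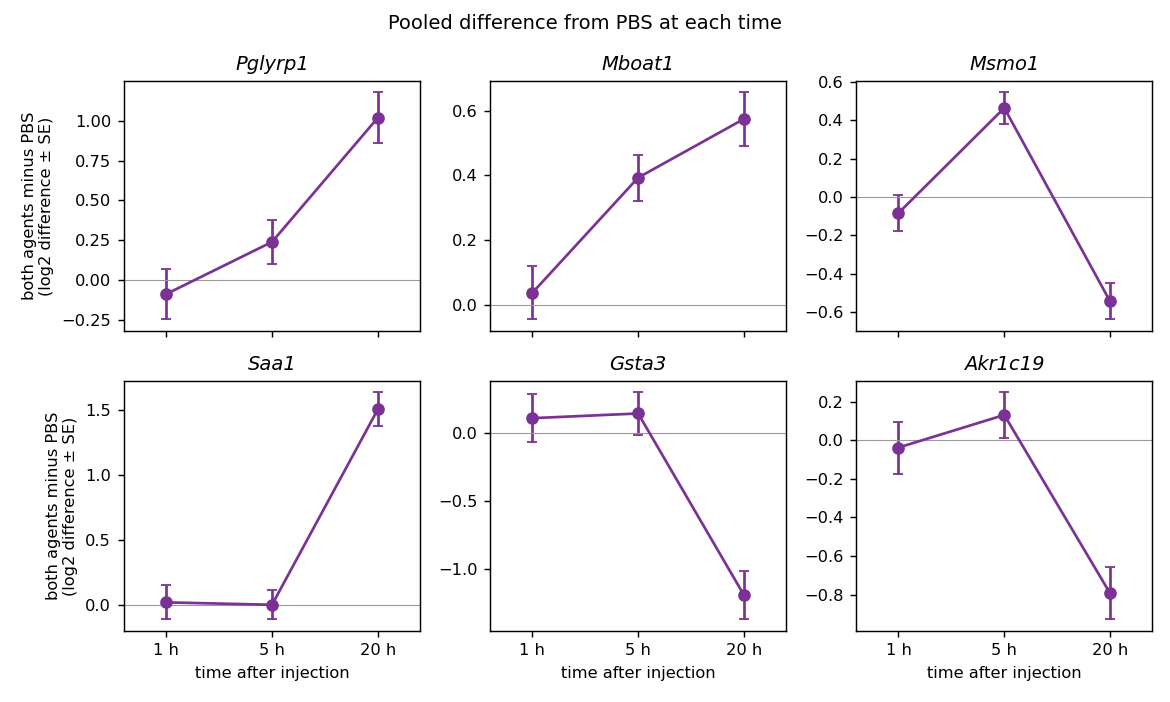
Pooled log2 difference of both agents from time-matched PBS (vertical axis, bars ± SE) at 1, 5 and 20 h for 6 genes, with n = 3 arrays per group at 1 and 20 h and n = 4 at 5 h. Mboat1 is above 0 at 5 and 20 h, Msmo1 is above 0 at 5 h and below it at 20 h, and Saa1, Gsta3 and Akr1c19 lie near 0 until 20 h.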

How the data were processed

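The authors deposited 1 log2 value per probe and array. Their normalisation was not given in the sources used here, but values of equal rank had an SD of at most 0.00218 across arrays, as quantile normalisation would give. Per the labels' protocols, RNA was extracted with Trizol and labelled with an Illumina TotalPrep-96 kit from 1500 ng of cRNA. The platform annotation gave 1 gene symbol to 34885 of the 45281 probes, several to 18 and none to 10378, and 34807 matched the genes of RefSeq (GRCm38.p6), used for names. A further 60 columns of non-normalized values, whose headers match no sample label, are not used here.

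The dim level of 7.18 follows from the most frequent signal, 7.02, and the spread of the values under it (SD 0.0714). Genes above it in at least 3 arrays were tested, each by its probe with the highest mean over the 30 arrays, which left 13144 genes. All 30 arrays entered 1 limma fit with 9 group means and moderated variances (21 residual plus 4.61 prior degrees of freedom). Benjamini-Hochberg adjustment covered all genes tested, with a threshold of 0.05. For a group with no array above the dim level, the bound on a fold sets the other group's mean against that level. No background was subtracted before folds were taken, which understates changes of dim genes. The number of arrays limits the precision. The labels call the replicates separate samples without saying that each is a different mouse, so p-values measure only the spread between samples, which may be technical.

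The comparison, its members and the 50 gene lists (32 of pathways, 18 of cell markers) were chosen with earlier results of these data known. Named genes are those that met the rule for a common change, up to 4 passing members per list, up to 6 by the smallest p between the agents or between 20 h and 5 h, and Glp1r, Fgf7 and Fgfr2; others are named as chosen after their values were seen or stand for a list. Alternatives changed the filter, the arrays fitted, the variance model, array weights, scaling, background and probe choice, added a replicate block or a smooth muscle covariate, and left out each array in turn. The code was tested on simulated data. The software was limma 3.58.1 and data.table (1.17.8) in R 4.3.3, with Python 3.11.15, matplotlib 3.10.9 and pandas 2.3.3.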

Additional observations from a re-analysis of the deposited data

Results flagged for a closer look

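The effect of Ex-4 differed from that of Fgf7 for each of the 21 genes that passed in the pooled comparison, by limma's test of the difference itself. As log2 differences of Ex-4 minus Fgf7, the genes that were higher after Ex-4 than after Fgf7 were Saa1 at 3.02, Lcn2 at 2.38, Cyba at 1.58, Pglyrp1 at 1.25 and Ltf at 1.24. The Saa1 probe met the filter only through the Ex-4 arrays, so its test is no independent support. Mboat1 at -0.78 and S100a6 at -0.64 were higher after Fgf7. Among the enzymes of foreign-compound metabolism, all lower after Ex-4, the differences were -1.50 for Gsta3, -1.19 for Gsta2, -0.98 for Gsta1, -1.33 for Ephx1, -1.31 for Akr1c19, -1.30 for Cyp3a25, -0.75 for Cyp2c65 and -1.12 for Ugt2b36. The remaining genes were also lower after Ex-4, with -1.37 for Slc5a4b, -1.13 for Aldoc, -0.89 for Retsat, -0.82 for Rdh7, -0.55 for Ptp4a1 and -0.51 for Msmo1.

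The pooled difference at 20 h differed from that at 5 h for 7 genes. As log2 values at 20 h minus those at 5 h, these were 1.51 for Saa1, 0.32 for Cd82, -1.34 for Gsta3, -1.01 for Msmo1, -0.92 for Akr1c19, -0.88 for Lss and -0.59 for 1700025G04Rik.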

How the results depend on the processing

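None of the 21 genes of the pooled comparison changed direction under any alternative. Over 21 alternatives they gave 439 results, of which 361 still passed and 78 did not. Mboat1 passed in all 21. Saa1, whose probe exceeded the dim level only in 3 Ex-4 arrays, passed in all 20 in which it was tested. That probe met the filter through the group where it was high, so these passes are no independent support. With only the 9 arrays of 20 h fitted, the counts were 11 for both agents pooled, 132 for Ex-4 and 117 for Ex-4 against Fgf7. With a replicate block, they were 49 pooled, 10 for Fgf7, 10 common to both agents and 22 for 20 h against 5 h, and Nupr1 then passed for each agent separately with the same sign. The labels do not say that a replicate number marks a shared litter or day. Arrays of the same number deviated from their group means with correlations of -0.18 to 0.61 (median 0.20, 7 of 9 pairs over 0.1), against -0.42 to 0.28 (median -0.05) for the 18 pairs of different numbers. Not every array correlated best with its own number, so whether the numbers pair the arrays is not settled. With all probes, the counts were 32 pooled, 10 for Fgf7 and 4 for 20 h against 5 h. With a smooth muscle covariate, they were 40 pooled and 10 common. The common count was 5 without a filter on dim probes, 6 with a variance trend and robust fit, 7 with array weights and 8 after background subtraction. Chosen after seeing the data, leaving out the 4 arrays of high smooth muscle signal gave 6 common genes and 3 for 20 h against 5 h. Leaving out the third arrays of PBS and Fgf7 gave 4 pooled, 189 for Ex-4 and 3 for 20 h against 5 h. Leaving out 1 array at a time gave 8 to 57 pooled, 134 to 316 for Ex-4, 4 to 7 for Fgf7, 137 to 243 for Ex-4 against Fgf7, 3 to 15 common and 2 to 22 for 20 h against 5 h. The common count of 15 was without PBS replicate 1, where Ttyh1 passed for each agent. The count for 20 h against 5 h was 22 without Ex-4 replicate 3 and 2 without PBS replicate 2 or Fgf7 replicate 3. The causes were not tested. Genes near the dim level, such as Saa1 and Lcn2 after Fgf7 and PBS, have only bounds.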
